A study of Mus musculus with 9 samples.

Results

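Surface markers that gate progenitor subsets are the genes of 10 cell-surface proteins by which antibodies separate mouse stem and progenitor cells, namely Cd34, Fcgr3, Slamf1, Cd48, Eng, Cd9, Ly6a, Procr, Cd27 and Cd93. They were chosen by name, from their use in flow cytometry, and all 10 were present among the 37980 genes measured by RNA sequencing (RNA-Seq). The study compared myeloid progenitors (MPs), the Lin-c-kit+Sca1- cells of bone marrow, from mice transplanted with multipotent progenitors (MPPs) that carried or lacked the fusion gene NUP98-HOXA10hd (NA). NA MPs (n = 4) were Tdtomato+ donor-derived cells from irradiated recipients of NA MPPs, whose donors were NA LSL/+; Vav-Cre mice on a C57BL/6 background, in which Cre recombinase under the blood-cell promoter Vav switches on the fusion gene at the Rosa26 locus. WT MPs (n = 5) were CD45.2+ cells from irradiated recipients of WT MPPs. Each sample was a sort of 100000 cells, and the labels put it 3 months post-transplantation, whereas the study's methods give a later month. The recipients were adult mice that had also received helper bone marrow cells. The study describes recipients as CD45.2+ and the donor-derived WT cells elsewhere as CD45.1+, so the origin of the WT MPs (donor, helper or recipient) cannot be told apart. The sources used here do not say if 1 sample was 1 mouse, so p-values measure the spread between these samples, which may be technical.

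Within MPs, antibodies against CD34 and CD16/32 separate the common myeloid progenitor (CMP, CD34+ with low CD16/32), the granulocyte-monocyte progenitor (GMP, CD34+ with high CD16/32) and the megakaryocyte-erythroid progenitor (MEP, negative for both). CD150 (Slamf1), CD105 (Eng) and CD9 divide the megakaryocyte and erythroid branches further. CD48 (Cd48), Sca1 (Ly6a) and EPCR (Procr) help to set stem cells apart from multipotent and committed progenitors, while CD27 (Cd27) and CD93 (Cd93, the AA4.1 antigen) mark early progenitors of several lineages. The values below are RNA, not surface protein, and in sorted bulk samples fewer cells of a subset and less RNA per cell cannot be told apart.

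Estimated depth ran from 5557692 to 8106152 reads per sample, and values are given as normalized counts, meaning reads per gene divided by a size factor of the sample. A total of 3 reads was worth between 2.48 and 3.60 normalized counts, and this floor covers only counting error. Principal component 1 (65.8% of the variance) parted the groups, and NA MP replicate 1 stood apart on component 2 (6.12%), with a score of 20.3 while the other 8 samples lay between -8.93 and 1.41. Among the genes of the sort, Kit was at 2964 ± 133 normalized counts (SD, n = 4) for NA MPs and 3039 ± 42.4 (SD, n = 5) for WT MPs, with a log2 fold change of -0.037 (adjusted p = 0.353 from limma). Cd2, Cd3e, Cd8a and Ly6g had at most 3 reads in every sample. Itgam (Mac1) and Ptprc (whose B220 form was in the lineage mix) rose in NA MPs, by 0.27 and 0.26 on the log2 scale. The groups overlapped for Itgam, with NA MP replicate 1 (419) inside the WT MP range (390 to 445), but not for Ptprc.

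Of the 10 markers, 9 had enough reads for the test across genes and 7 of these were past the threshold (limma's moderated test with an adjusted p under 0.05), against 34.3% of all tested genes. Cd34, Slamf1, Cd48, Cd27 and Cd93 rose in NA MPs, against a background of 16.9% of genes higher, and Fcgr3 and Eng fell, against 17.3% lower. These shares are also the background for the gene-list counts given below. Cd9 and Ly6a did not pass, and Procr was too low to be tested. The samples of both groups did not overlap for 6 of the 9 tested markers (5 with library size alone as the scaling), against 26.3% of all tested genes. Of these 6, 4 were higher in NA MPs (13.5% of all tested genes) and 2 lower (12.8%). The median log2 fold change (NA minus WT) was 0.15 over the 9 markers and -0.0081 over all tested genes, and no marker changed by 2-fold.

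**Figure D1:**
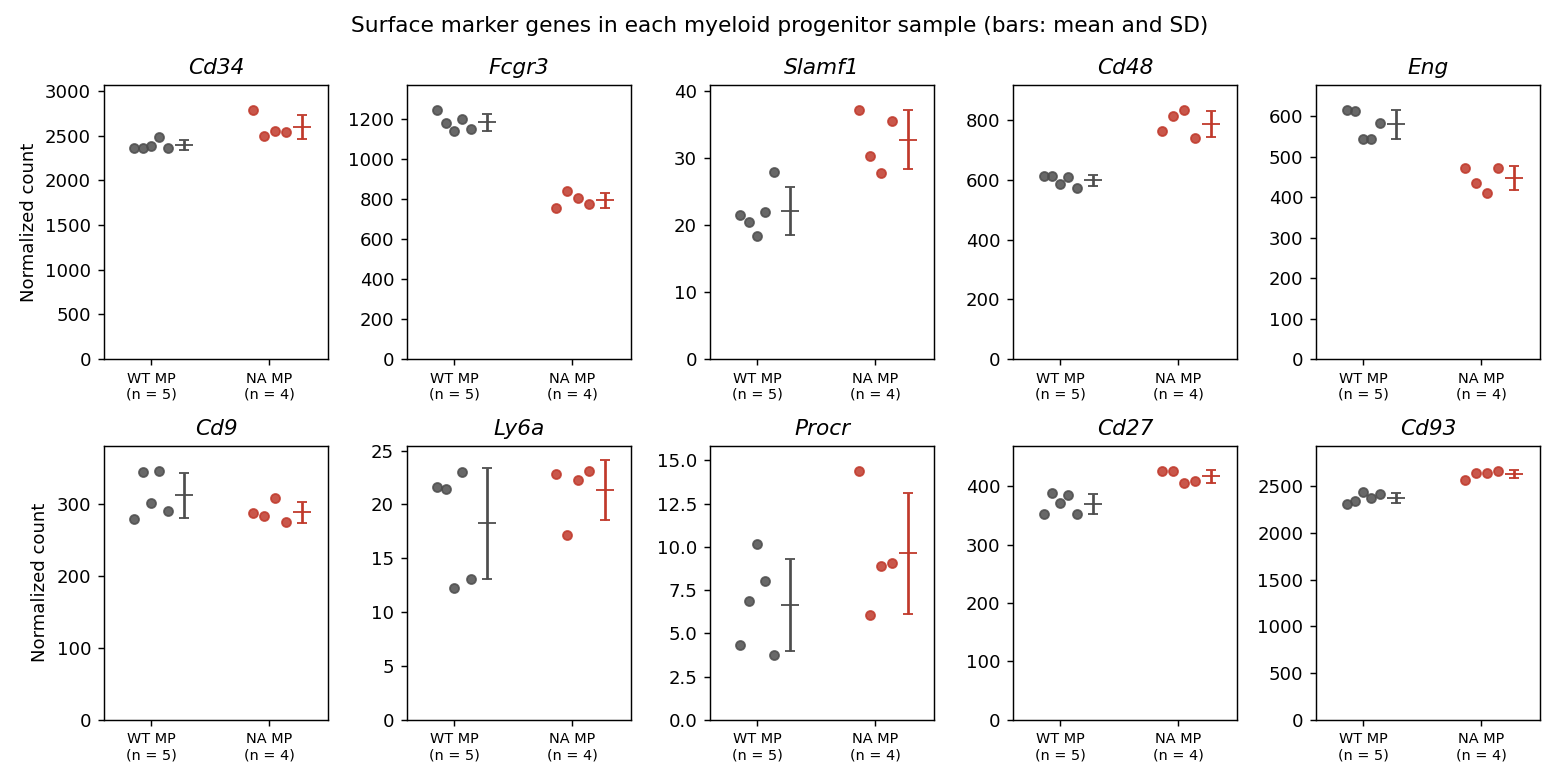
Normalized count (vertical axis, from 0) of each of the 10 marker genes in each WT MP (grey) and NA MP (red) sample; points are samples and bars the mean and SD. The NA MP points for Fcgr3 (755 to 842) and Eng (411 to 474) lie below every WT MP point, those for Cd34, Cd48 (740 to 834), Cd27 and Cd93 lie above, and those for Cd9, Ly6a, Procr and Slamf1 overlap.

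**Figure D2:**
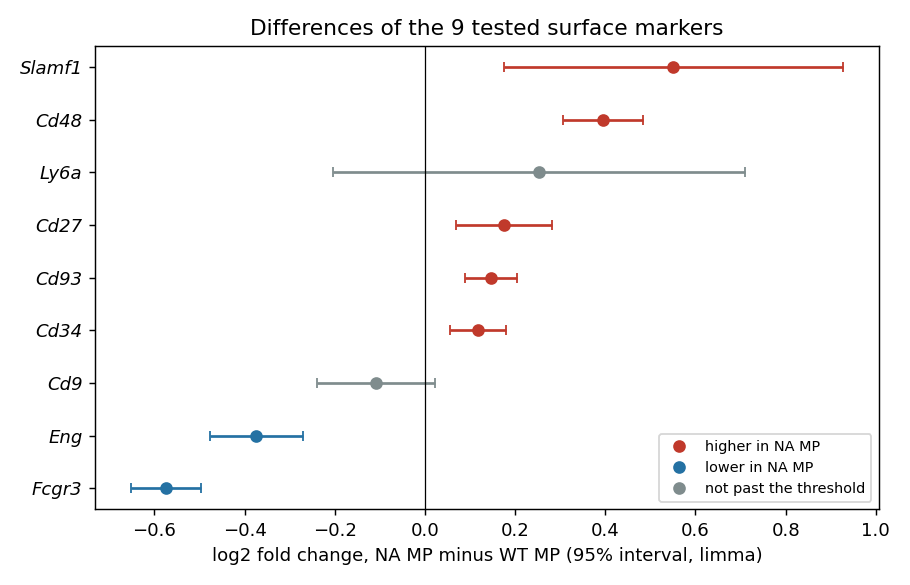
Log2 fold change (horizontal axis, NA MP minus WT MP) of the 9 tested markers with the 95% interval from limma. Slamf1 (0.55) and Ly6a (0.25), which had few reads, have the widest intervals, and Fcgr3 (-0.57) and Eng (-0.37) lie to the left of 0.

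The pair that defines CMP, GMP and MEP moved in opposite directions, with Cd34 higher by 8.59% while Fcgr3 fell by 32.8% of the WT mean. Of all tested genes, 48.2% had a smaller absolute log2 fold change than Cd34 and 91.6% a smaller one than Fcgr3. Cd34 (ENSMUSG00000016494, chr1:194938819-194961279, plus strand, in mm10) encodes a sialomucin of stem and progenitor cells. Its normalized counts were 2787, 2496, 2549 and 2545 in NA MP replicates 1 to 4 and 2357, 2359, 2384, 2487 and 2358 in WT MP replicates 1 to 5. The groups did not overlap, but the highest WT MP sample came close to the lowest NA MP sample, and with library size alone as the scaling the groups overlapped (exact permutation p = 0.0238). The means were 2594 ± 131 (SD, n = 4) and 2389 ± 56.1 (SD, n = 5), a log2 difference of 0.12 (SE, the standard error, 0.031, adjusted p = 0.00261 from limma). An exact two-sided permutation test over the samples gave p = 0.0159.

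Fcgr3 (ENSMUSG00000059498, chr1:171051174-171064935, minus strand) encodes CD16, a low-affinity receptor for the constant part of immunoglobulin G. NA MPs had 755, 842, 806 and 778 normalized counts and WT MPs 1246, 1181, 1141, 1200 and 1153. The NA MP samples were all well below the WT MP samples, and the gap between the groups was wider than the range within either. From a mean of 1184 ± 41.8 (SD, n = 5) in WT MPs Fcgr3 fell to 795 ± 37.6 (SD, n = 4), a log2 fold change of -0.57 (SE 0.039, adjusted p = 4.12e-16 from limma). The exact permutation test gave p = 0.00794, the smallest that 4 against 5 samples allow.

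The CD16/32 antibody also binds CD32, the inhibitory Fc receptor encoded by Fcgr2b. Fcgr2b had 521 ± 39.4 (SD, n = 4) and 523 ± 20.7 (SD, n = 5) normalized counts, with a log2 fold change of -0.0059 (adjusted p = 0.946 from limma). The ratio of Fcgr3 to Fcgr2b within a sample was 1.53 ± 0.084 in NA MPs (n = 4) and 2.27 ± 0.158 in WT MPs (n = 5). The groups did not overlap in this ratio (exact two-sided permutation test, p = 0.00794, adjusted p = 0.0159 over the 2 ratios tested). Summed over the pair, the genes behind the antibody gave 1317 ± 70.5 normalized counts in NA MPs (n = 4) and 1707 ± 28.7 in WT MPs (n = 5), which was 22.9% lower in NA MPs and without overlap (exact two-sided permutation p = 0.00794). Since Fcgr3 had already parted the groups widely and Fcgr2b was flat, the p-values of the ratio and the sum repeat the Fcgr3 result and are not separate evidence.

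Of the other 4 tested Fc receptor genes, 2 rose and 0 fell. Fcer1g, the shared signalling chain that carries CD16 to the surface, rose from 436 ± 11.5 (SD, n = 5) to 590 ± 38.0 (SD, n = 4) normalized counts, by 0.43 on the log2 scale (adjusted p = 1.10e-09 from limma). Fcgrt, the neonatal Fc receptor, rose by 0.78 with overlapping groups, while Fcgr4 (0.0061) and Fcgr2b did not pass and Fcgr1 was too low to be tested.

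The ratio of Cd34 to Fcgr3 within a sample removes the size factor of that sample. Its log2 lay between 1.57 and 1.88 in NA MPs and between 0.92 and 1.06 in WT MPs. There were 3.27 ± 0.307 Cd34 reads for each Fcgr3 read in NA MPs (n = 4) and 2.02 ± 0.0798 in WT MPs (n = 5), without overlap, and since both genes had parted the groups in opposite directions this was not tested. The 10 tested markers of GMPs summed to between 162016 and 179509 normalized counts in NA MPs and between 158669 and 165191 in WT MPs. Most of each sum was Mpo (means 107675 and 103947), which did not pass. Of the 10 markers, 4 rose (Ctsg, Ly86, Ms4a3 and Prtn3) and 0 fell, and the median log2 fold change was 0.069. Without NA MP replicate 1, 7 of the 10 rose. Their part in the Fcgr3 result was not tested.

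**Figure D3:**
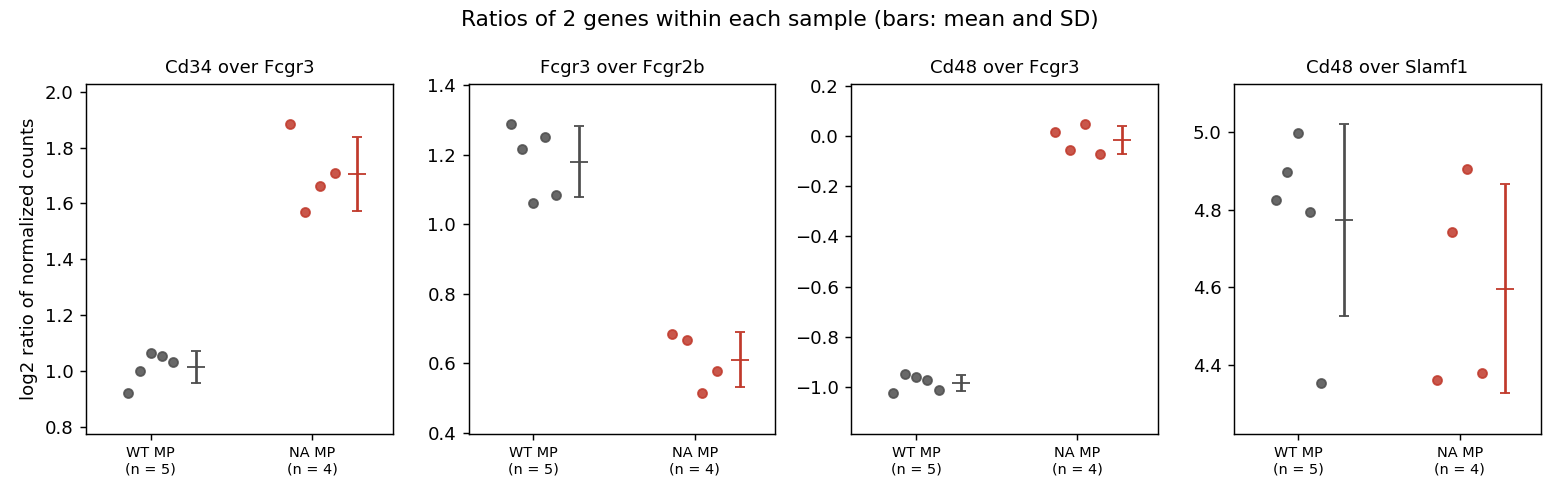
Log2 ratio of the normalized counts of 2 genes in the same sample (vertical axes, not starting at 0), for WT MP (grey) and NA MP (red) samples, with the mean and SD as bars. Cd34 over Fcgr3 and Cd48 over Fcgr3 are higher and Fcgr3 over Fcgr2b is lower in every NA MP sample, while Cd48 over Slamf1 overlaps between the groups.

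The promoter sequence of Fcgr3 is shown because Fcgr3 had the largest fall of the markers. Sequences come from RefSeq on GRCm38.p6, which held 8 of the 10 markers (not Ly6a and Cd93), and run 5′ to 3′ on the strand of the gene toward its start. The 250 bases before each start were searched on both strands for the letters of 7 motifs, which may overlap: GATAA (GATA factors, in 22.58% of 32851 promoters), GAGGAA (PU.1, 23.25%), CCGGAA (ETS, 12.03%), TGTGGT (RUNX, 14.05%), TTTAT (HOX, 37.26%), TGATTNAT (HOX with PBX, 2.82%) and TGACAG (MEIS, 15.86%). Capitals mark the letters that match, on either strand. RefSeq held 2 starts for Fcgr3, and only the first listed was searched and is shown. That start lies inside the longer gene span given above, and the stretch printed, chr1:171059404-171059563 on the minus strand, lies outside the annotated exons of Fcgr3.
Fcgr3: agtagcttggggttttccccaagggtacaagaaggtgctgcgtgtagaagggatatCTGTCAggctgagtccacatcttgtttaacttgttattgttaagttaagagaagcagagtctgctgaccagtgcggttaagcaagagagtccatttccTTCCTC
It held the PU.1 letters on the opposite strand from 6 to 1 bases before the start and the MEIS letters on the opposite strand from 104 to 99 bases before it. These are matches of letters, not measured binding sites.

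Both SLAM markers rose in NA MPs, but Slamf1 less firmly than Cd48. CD48 is a small adhesion protein that binds CD244, and CD150, the product of Slamf1, binds itself on neighbouring cells; stem cells carry CD150 without CD48. Cd48 (ENSMUSG00000015355, chr1:171682009-171705258, plus strand) had 765, 812, 834 and 740 normalized counts in NA MPs and 612, 612, 586, 610 and 571 in WT MPs. All 4 NA MP samples exceeded all 5 WT MP samples, and the mean rose from 598 ± 18.7 (SD, n = 5) to 788 ± 43.0 (SD, n = 4), or by 31.7%. The log2 fold change was 0.40 (SE 0.044, adjusted p = 6.72e-10 from limma), and the exact permutation test gave p = 0.00794.

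Slamf1 (ENSMUSG00000015316, chr1:171767127-171801184, plus strand) rested on between 18 and 43 reads per sample. Its normalized counts were 37.2, 30.3, 27.8 and 35.5 in NA MPs and 21.6, 20.53, 18.3, 22.0 and 28.0 in WT MPs, so the highest WT MP sample, replicate 5, lay above the lowest NA MP sample. The means were 32.7 ± 4.39 (SD, n = 4) and 22.1 ± 3.58 (SD, n = 5), with a log2 fold change of 0.55 (SE 0.19, adjusted p = 0.0189 from limma, exact permutation p = 0.0238). The call was lost when NA MP replicate 1 was left out (0.49, adjusted p = 0.0638 from limma) or when NA MP replicate 4 was (0.51, adjusted p = 0.0596). The log2 ratio of Cd48 to Slamf1 was 4.60 ± 0.27 in NA MPs (n = 4) and 4.77 ± 0.25 in WT MPs (n = 5), a difference that did not pass (exact two-sided permutation p = 0.294).

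The promoters of both genes, which lie next to other SLAM genes on chromosome 1, are shown as those of the pair that rose. The stretch of Cd48 is chr1:171681832-171681991 and that of Slamf1 is chr1:171766972-171767126, both on the plus strand.
Cd48: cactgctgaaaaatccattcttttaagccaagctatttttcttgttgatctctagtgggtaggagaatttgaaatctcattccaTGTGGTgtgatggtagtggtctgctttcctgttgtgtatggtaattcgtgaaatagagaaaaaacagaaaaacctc
Slamf1: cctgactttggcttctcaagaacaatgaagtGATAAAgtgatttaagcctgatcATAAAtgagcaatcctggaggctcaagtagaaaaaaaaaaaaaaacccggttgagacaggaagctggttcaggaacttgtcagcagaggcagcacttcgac
Cd48 had only the RUNX letters, from 76 to 71 bases before the start. Slamf1 had the GATA letters from 129 to 125 bases before it, overlapping a HOX match on the opposite strand, and another HOX match from 106 to 102 bases. The Cd48 and Slamf1 stretches shared none of the 7 motifs.

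Among the other 5 tested genes of the SLAM family and its adaptors, 4 rose and 0 fell, and the median log2 fold change was 0.47. Cd244a, the receptor for CD48, had 110, 113, 99.1 and 111 normalized counts in NA MPs against 62.6, 90.7, 77.4, 83.0 and 78.3 in WT MPs, and so lay higher in every NA MP sample (log2 fold change 0.47, adjusted p = 0.000531 from limma). Slamf6 rose by 1.67 and Slamf7 by 1.39 on the log2 scale, receptors known from lymphocytes and natural killer cells, from 11.7 ± 1.91 to 39.7 ± 9.47 and from 13.3 ± 3.77 to 35.7 ± 6.95 normalized counts (SD, n = 5 and 4). Cd84 rose by 0.40, and Ly9, the remaining tested receptor, had a value of -0.044 (adjusted p = 0.693 from limma). Beside these, 9 of 9 tested pro-B and pre-B cell markers rose in NA MPs, and the median log2 fold change was 3.10 (Ebf1, Pax5 and Vpreb3 passed the filter on low values, at least 10 normalized counts in 4 samples, only through NA MPs and were left out). For all 12 markers the summed normalized counts were 1493, 2650, 2669 and 1998 in NA MP replicates 1 to 4 and between 388 and 424 in WT MPs. NA MP replicates 2 and 3 were the highest of their group for both that sum and Cd48, and Slamf1 was highest in NA MP replicates 1 and 4. In WT MP replicates 1, 2 and 4 Cd48 was nearly equal (611.9, 611.8 and 610.4). The sums there were 391, 424 and 388. WT MP replicates 3 and 5 had the lowest Cd48 of their group (586 and 571), yet their sums (411 and 407) lay above those of replicates 1 and 4. Cd48 and the sum thus did not run in the same order in WT MPs. Of the T and natural killer cell markers, Cd3e and Cd3g were at 0 in every sample and Cd3d and Cd8a had at most 3 reads, while Lck and Nkg7, the 2 of 9 that were tested, rose. The part of B-lineage or other lymphoid RNA in the SLAM results was not tested.

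Eng fell in NA MPs, alongside erythroid genes. Eng (ENSMUSG00000026814, chr2:32646595-32682669, plus strand) encodes endoglin (CD105), a co-receptor for ligands of the TGF-β family that is high on early erythroid progenitors. NA MPs had 472, 435, 411 and 474 normalized counts and WT MPs 616, 613, 543, 545 and 584, without overlap. The mean fell from 580 ± 35.2 (SD, n = 5) to 448 ± 30.4 (SD, n = 4), or by 22.8%, with a log2 fold change of -0.37 (SE 0.051, adjusted p = 1.25e-07 from limma, exact permutation p = 0.00794). An exon of Fpgs overlaps Eng on the opposite strand, and whether the counting used strand is not given in the sources used here, so these counts are uncertain to that extent.

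Of the 12 erythroid progenitor markers, 11 fell and 0 rose, and the median log2 fold change was -0.88, and Hbb-bs did not pass. Their summed normalized counts were between 6195 and 7848 in NA MPs and between 11500 and 12732 in WT MPs. In each group, the 2 samples with the highest Eng were those with the highest erythroid sum, NA MP replicates 4 and 1 and WT MP replicates 1 and 2. Over the 9 samples the highest Pearson r of log2 values with Eng was that of Btnl10 (0.988), and Add2 (0.985), of the red cell membrane skeleton, was also among the nearest 3. Such coefficients are a description, since the difference between the groups enters all of them. The share of erythroid RNA in the Eng result was not tested.

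**Figure D4:**
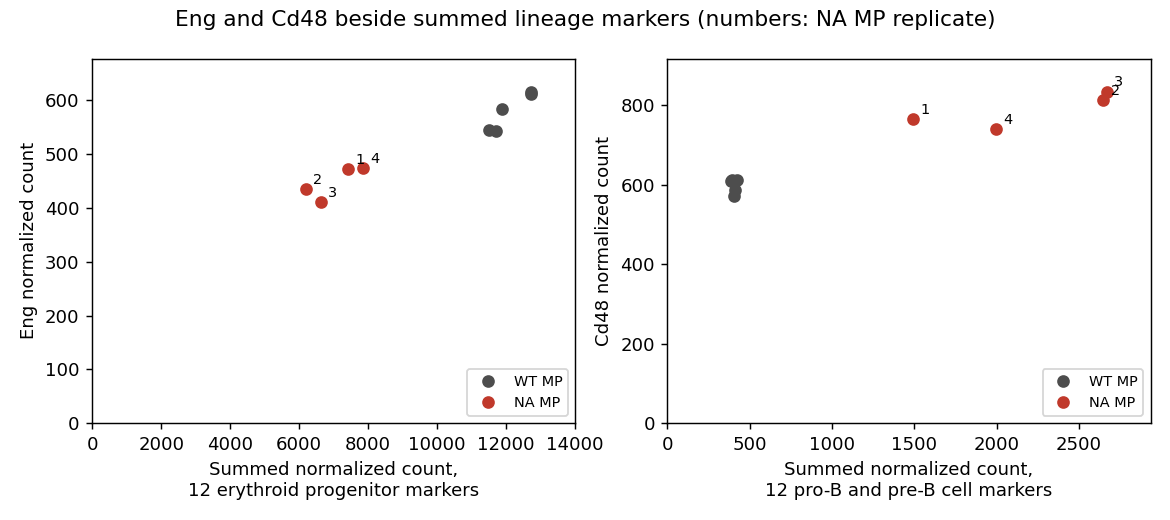
Normalized count of Eng against the summed normalized counts of 12 erythroid progenitor markers (left) and of Cd48 against those of 12 pro-B and pre-B cell markers (right), each point a sample, with NA MP (red) numbered by replicate and WT MP in grey. NA MP samples lie lower on both axes at left and higher on both at right.

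The promoter of Eng, the other marker that fell, is shown at chr2:32646435-32646594 on the plus strand.
Eng: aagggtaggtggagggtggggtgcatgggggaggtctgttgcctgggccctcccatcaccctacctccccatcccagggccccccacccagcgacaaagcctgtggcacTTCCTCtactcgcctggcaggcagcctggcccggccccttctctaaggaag
It had the PU.1 letters on the opposite strand from 51 to 46 bases before the start and no match for the other 6 motifs. Fcgr3 and Eng, 2 of the 8 markers searched, held the PU.1 letters, as did 23.25% of all promoters.

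Of 12 other tested genes of the endoglin and TGF-β receptor complex, 4 rose and 2 fell (Smad6, which passed the filter only through NA MPs, was left out). Over all tested genes, 16.9% rose and 17.3% fell. Tgfbr3, another co-receptor, fell from 183 ± 10.7 (SD, n = 5) to 79.9 ± 10.1 (SD, n = 4) normalized counts (log2 fold change -1.19, adjusted p = 2.27e-14 from limma), and Bmpr2, a receptor for bone morphogenetic proteins, fell by 0.40. Tgfbr2, the ligand-binding receptor, rose by 0.51, Tgfb1, a ligand, by 0.31 and Smad7, an inhibitor of the pathway, by 0.59 on the log2 scale. The median of these 12 genes was 0.057, and 6 did not pass. Acvrl1, a receptor that acts with endoglin in endothelium, was too low to be tested. Of the markers of endothelium, which also makes endoglin, Cldn5 was at 0 and Cdh5 and Ptprb had at most 3 reads in every sample. Of the 5 tested, 2 rose (Pecam1, and Flt1, with overlapping groups and an adjusted p of 0.0351 from limma), and the number that rose was 1 without a filter on low values. Tie1 fell, as did Tek, which passed the filter only through WT MPs. The whole list summed to between 1296 and 1350 normalized counts in NA MPs and between 1256 and 1312 in WT MPs, and most of this was Pecam1 (means 985 and 772).

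Cd9 (ENSMUSG00000030342, chr6:125460266-125494791, minus strand), a tetraspanin high on megakaryocyte progenitors, was not past the threshold. Its normalized counts were 287, 283, 308 and 274 in NA MPs and 278, 344, 301, 346 and 290 in WT MPs, with means of 288 ± 14.4 (SD, n = 4) and 312 ± 31.4 (SD, n = 5). The groups overlapped, and WT MP replicates 2 and 4 were the highest of all. The log2 fold change was -0.11 with a 95% interval from -0.24 to 0.023 (adjusted p = 0.205 from limma, exact permutation p = 0.246). Of the other 15 tetraspanin genes, all tested, 3 rose and 4 fell, near the shares over all tested genes (16.9% higher and 17.3% lower). Tspan33, known from erythroid cells, fell by 1.22 on the log2 scale, Cd82 by 0.31 and Cd81 by 0.17, while Cd37, a tetraspanin of lymphocytes, rose by 0.42. The summed megakaryocyte markers overlapped between the groups, at 1453 to 1677 in NA MPs and 1453 to 1602 in WT MPs, and Itga2b (CD41) rose by 0.19 on the log2 scale.

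The markers that help to define stem cells, Ly6a and Procr, had few reads in both groups. Ly6a (ENSMUSG00000075602, chr15:74994877-74998031, minus strand) encodes Sca1, the protein absent from these cells by the gate, and rested on between 12 and 28 reads per sample. Its normalized counts were 22.8, 17.2, 22.3 and 23.1 in NA MPs and 21.6, 21.4, 12.2, 23.0 and 13.0 in WT MPs. WT MP replicates 3 and 5 and NA MP replicate 2 were the lowest, and the groups overlapped. The log2 fold change was 0.25 with a 95% interval from -0.20 to 0.71 (adjusted p = 0.420 from limma, exact permutation p = 0.310). Among the other 10 Ly6 genes looked for, 2 were tested and both rose, Ly6c2, a marker of myeloid maturation, by 0.23 and Ly6e by 0.33 on the log2 scale. The groups overlapped for Ly6c2 but not for Ly6e. Reads of Ly6 genes, which resemble each other in sequence, could be split among them, so these counts are uncertain.

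Procr (ENSMUSG00000027611, chr2:155751117-155755471, plus strand), the endothelial protein C receptor, had between 4 and 12 reads per sample. Its normalized counts were 14.4, 6.07, 8.91 and 9.09 in NA MPs and 4.32, 6.84, 10.2, 8.005 and 3.73 in WT MPs, with means of 9.62 ± 3.48 (SD, n = 4) and 6.62 ± 2.66 (SD, n = 5). The groups overlapped (exact two-sided permutation p = 0.190), and in the fit without a filter on low values the log2 fold change was 0.50 (SE 0.33, adjusted p = 0.336 from limma). Of the partners of the protein C receptor, F2r, the thrombin receptor PAR1, rose from 360 ± 22.8 (SD, n = 5) to 552 ± 73.2 (SD, n = 4) normalized counts (log2 fold change 0.61, adjusted p = 5.10e-08 from limma), and Thbd and F2rl2 did not pass.

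The early progenitor markers Cd27 and Cd93 both rose, by 12.9% and 10.7% of the WT mean. A smaller absolute log2 fold change than that of Cd27 was found in 63.4% of all tested genes, and for Cd93 in 56.9%. Cd27 (ENSMUSG00000030336, chr6:125232622-125237010, minus strand) encodes a costimulatory receptor of the tumour necrosis factor receptor family. It had 426, 427, 405 and 409 normalized counts in NA MPs and 352, 388, 371, 384 and 352 in WT MPs, without overlap. The means were 417 ± 11.2 (SD, n = 4) and 369 ± 17.0 (SD, n = 5), with a log2 fold change of 0.17 (SE 0.053, adjusted p = 0.00822 from limma, exact permutation p = 0.00794). Its ligand gene Cd70 was at 0 in every sample, and of 5 tested signalling partners, among them Traf2 (0.13), 0 passed the threshold.

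Cd93 (ENSMUSG00000027435, chr2:148436640-148443563, minus strand) encodes a C-type lectin-like receptor. NA MPs had 2563, 2643, 2644 and 2667 normalized counts and WT MPs 2314, 2344, 2435, 2369 and 2415. The lowest NA MP sample exceeded the highest WT MP sample, with means of 2629 ± 45.7 (SD, n = 4) and 2376 ± 49.9 (SD, n = 5). The log2 fold change was 0.15 (SE 0.029, adjusted p = 6.61e-05 from limma, exact permutation p = 0.00794). Thbd, of the same protein family, was not past the threshold (-0.030), and Clec14a and Cd248 were too low to be tested.

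Scaled to transcript length (the median length of a gene's coding transcripts in GENCODE M21), the levels (to a total of 1000000 per sample) ran in WT MPs in the order Cd34 (207), Fcgr3 (194), Cd48 (123), Cd27 (96.3), Cd93 (77.2), Cd9 (55.1), Eng (39.2), Ly6a (4.61), Slamf1 (1.78) and Procr (1.37). Neighbours in that order did not overlap over the 5 samples, except Cd34 with Fcgr3 and Slamf1 with Procr. In NA MPs the same levels were 220 for Cd34, 158 for Cd48, 127 for Fcgr3, 106 for Cd27, 83.5 for Cd93, 49.8 for Cd9, 29.6 for Eng, 5.28 for Ly6a, 2.58 for Slamf1 and 1.94 for Procr, and only the last pair overlapped. Fcgr3 and Cd48 thus changed places: the level of Fcgr3 was above that of Cd48 in 5 of 5 WT MP samples, and that of Cd48 was above that of Fcgr3 in 4 of 4 NA MP samples. This held with the length of all exons as well. By that length Cd34 stood below Fcgr3, Cd48 and Cd93, Cd93 stood above Cd27, and Cd9 was above Eng in 3 of 5 WT MP samples, so other places in the order depend on the length used. The log2 ratio of the normalized counts of Cd48 to Fcgr3 was -0.015 ± 0.057 in NA MPs (n = 4) and -0.98 ± 0.033 in WT MPs (n = 5). This ratio joins 2 genes already seen to part the groups in opposite directions, so it was not tested.

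Among 16 other tested surface markers of progenitor subsets, 5 rose and 5 fell, beside 16.9% and 17.3% of all tested genes. The median log2 fold change of the 16 was 0.062 (Il7r and Thy1 are given apart). Il7r, the interleukin-7 receptor, had 39.6, 57.6, 43.4 and 47.9 normalized counts in NA MPs and between 4.002 and 6.52 in WT MPs, and Thy1 had 75.6 ± 6.44 (SD, n = 4) against 10.3 ± 3.48 (SD, n = 5). Il7r and Thy1 both passed the filter only through NA MPs. Flt3 (CD135), the cytokine receptor by which the transplanted MPPs were sorted, rose by 0.42 on the log2 scale (adjusted p = 6.57e-07 from limma). Tfrc, the transferrin receptor of erythroid progenitors, fell by 0.34 and Itgb3 (CD61) by 0.61. Of 3 tested sialomucin genes besides Cd34, Selplg, the ligand of P-selectin, rose by 0.28 and Spn (CD43) by 0.092, while Podxl, not counted here, had between 2.23 and 17.7 normalized counts per sample and passed the filter only through WT MPs. Of 7 tested stem cell genes, 3 rose and 2 fell, beside the same shares of all tested genes (16.9% and 17.3%). The median of the 7 was 0.035 (Hoxb5 and Tek each passed the filter only through the group where they were higher and were left out).

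**Figure D5:**
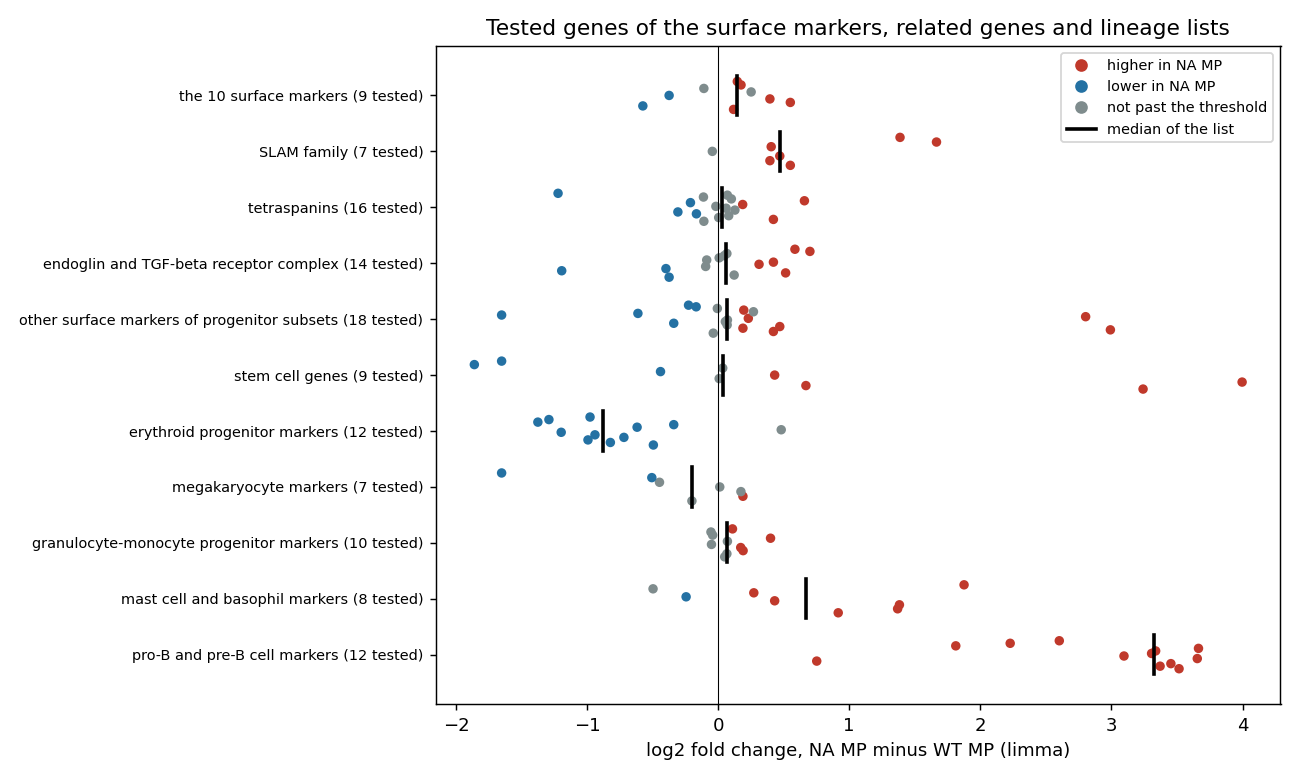
Log2 fold change (horizontal axis, NA MP minus WT MP) of each tested gene of the surface markers, of related gene lists and of lineage marker lists (rows), with the list median as a black line. The 9 tested surface markers lie between -0.57 and 0.55, the erythroid list has its median at -0.88 and the pro-B and pre-B list, drawn with the genes that passed the filter only through NA MPs, at 3.32.

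Mast cell and basophil markers also differed: of 7 tested, 5 rose and 1 fell, with a median of 0.43 on the log2 scale (Cma1 passed the filter only through NA MPs and was left out). The whole list summed to between 5010 and 5810 normalized counts in NA MPs and between 3796 and 4013 in WT MPs. Stromal cells should be removed by the sort on c-kit and on Tdtomato or CD45.2. Of 8 stromal markers, 2 were tested and rose (Pdgfrb, and Col1a2, which passed the filter on low values only through NA MPs). Pdgfra and Dcn were at 0 and Bglap had at most 3 reads in every sample. The list summed to 436 to 490 normalized counts in NA MPs against 205 to 240 in WT MPs. Nearly all of this was Pdgfrb alone, with means of 430 ± 19.7 (SD, n = 4) and 207 ± 14.2 (SD, n = 5). The part of these cells in the values of the 10 surface markers was not tested.

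The genes nearest in pattern to the remaining markers over the 9 samples, again as a description, were Atp5b (r = 0.994), App (0.993) and Emilin2 (0.991) for Fcgr3, and Ucp2 (0.994), H2-D1 (0.994) and Mfng (0.992) for Cd48. They were Cdk19 (0.991), Ccdc180 and Myo18b for Cd93, Csf2rb2 (0.982), Stat4 and Ifi27l2a for Cd27, and Mob2 (0.9748), Casp12 and Tmem176b for Cd34. For Slamf1 they were Oas1g (0.965), Zfp945 and Parp12, for Ly6a the highest r was 0.955 and for Cd9 it was 0.915.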

How the data were processed

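RNA of 4 NA MP and 5 WT MP samples was sequenced on TruSeq libraries (NextSeq 500). The authors estimated counts per gene with RSEM, on mm10 per the labels' processing notes, and used DESeq2; versions, annotation and strandedness are not given in the sources used here. The deposited signal values are called raw counts, but they had already been divided by size factors: totals differ little (6602851 to 6734284), and in every sample values are multiples of one step (0.827 to 1.20). Between 97.3% and 97.7% of values under 300 reads were whole to within 0.02 read after division by that step, whose use gave the estimated depth. A test for raw counts had been planned and was replaced, with its scaling factors, by limma 3.58.1 (R 4.3.3; trend and robust options) on log2(value + 1), which understates changes of low genes. It was applied to the 11987 genes with a value of at least 10 in 4 or more samples, adjusted by the Benjamini-Hochberg method at a threshold of 0.05, and was tested on simulated data. Single values were compared by exact permutation over the 126 ways to choose 4 of 9 samples (Python 3.11.15).

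Symbols matched 32916 genes. Coordinates, lengths and overlaps came from GENCODE M21 (GRCm38, the mm10 assembly). Length-scaled levels were values divided by length and scaled to a total per sample over 32935 genes. Exons of Cd34, Cd9 and Cd27 also overlap other annotated transcripts. All 10 markers, members of companion gene lists that are relatives, partners or antibody targets of a marker, and the 3 genes nearest in pattern were to be named. Which list members to print was chosen with values seen, and the markers and lists were chosen with earlier results of these data known. Same-numbered replicates of both groups did not deviate together (r from -0.020 to 0.057 over 4 pairs), so the number was used as a block only as an alternative. Chi-square per degree of freedom was from 1.20 to 1.70 between WT MP samples and from 1.62 to 2.83 between NA MP samples, so no sample was a copy of another. WT MP samples thus differed less from each other, and this check cannot tell if samples were separate mice. Some genes within these lists are not reported here.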

Additional observations from a re-analysis of the deposited data

Results flagged for a closer look

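Of 90 groups of 4 or 5 values (the markers and the companion genes named, in each group), 7 held a sample far from the others by Dixon's criterion, while chance gives about 4.5, since it flags about 1 in 20 groups. Among the surface markers these were Cd34 in WT MP replicate 4 (2487 normalized counts), the highest of its group, and Ly6a in NA MP replicate 2 (17.19), the lowest. Among other genes they were Itgam in NA MP replicate 1 (419), Tfrc (1903), Cd81 (742.4) and Thbd (88.49) in WT MP replicate 1, and Tspan33 in NA MP replicate 4 (121.5). Without WT MP replicate 4 or NA MP replicate 2, the calls for Cd34 and Ly6a were the same as with them.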

How the results depend on the processing

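Each of the 9 tested markers was refitted under 18 alternatives (other scalings, filters, pseudocounts, limma's settings, voom on the estimated reads, the replicate block, and each sample left out), of which voom and the pseudocounts of 0.5 and 5 were chosen after seeing the data. No direction reversed, and calls were the same except for Slamf1, lost without NA MP replicate 1 or 4. The number of markers past the threshold was 6 to 7 with a sample left out and 7 otherwise. Over all genes the count was 4107, between 3549 and 3937 with a sample left out and between 3693 and 4183 otherwise. With the replicate number as a block, 7 markers and 3693 genes passed; WT MP replicate 5 has no partner and drops out of that fit, and the block changed no marker's call. The smallest difference among the 7 called markers, that of Cd34, ranged from 0.083 to 0.14 on the log2 scale. Of 1080 counts over the gene lists, 1040 stayed within 1.5 times. DESeq2 and edgeR were not run, since no raw counts were at hand. Depth limits Slamf1, Ly6a and Procr.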
